A study of Mus musculus with 6 samples.

Results

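The mitochondrial respiratory chain is built from proteins of both genomes, and the genes examined here are those of the nuclear genome. They were taken as the rows present in all 6 count tables whose symbol begins with Nduf, Uqcr, Cox4, Cox5, Cox6, Cox7 or Cox8, together with Sdha, Sdhb, Sdhc and Sdhd. A row also needed unique molecular identifiers (UMIs, which count captured RNA molecules) in replicate 3 of both groups and in replicates 1 and 2. This left 71 of 74 matching rows, among 19,349 genes in all. The rows left out were Ndufaf8, which had UMIs in replicate 3 of both groups (4362 and 2120) and none in the other libraries, and Cox4i2 and Cox8b, which had no UMI in at least 1 library of replicates 1 and 2. Of the 71 genes, 7 encode core subunits of complex I, 29 its accessory subunits and 7 its assembly factors, 4 encode complex II, 8 complex III, 11 the common forms of complex IV, and 4 tissue-restricted forms. The remaining gene, Cox7a2l, was listed under the association of complexes III and IV, and its protein was not measured here.

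Liver non-parenchymal cells, a preparation depleted of hepatocytes, were sequenced on the 10x Genomics Chromium system from male C57BL/6J mice with nonalcoholic steatohepatitis (NASH). All mice had received a high-fat diet for 24 weeks from the age of 8 weeks. In the last 8 weeks the vehicle group (3 libraries) was given DMSO by gavage, and the ginkgetin group (3 libraries) was given ginkgetin, a biflavone of Ginkgo, at 10 mg/kg/day. Whether a library came from 1 mouse or several is not given, so p-values measure the spread between libraries.

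Complex I takes electrons from NADH and complex II takes them from succinate. Both pass them through ubiquinone to complex III, and cytochrome c carries them on to complex IV, where oxygen is reduced. The energy released drives ATP synthase. In macrophages, the balance between this chain and glycolysis is known to differ between activation states, and Kupffer cells are the resident macrophages of the liver.

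The libraries held 13,128,697 to 61,796,882 UMIs and 3577 to 8119 barcodes, and 27,544 of 33,168 barcodes were kept. Replicate 3 of both groups came with other gene symbols than replicates 1 and 2 and shared at most 1 barcode with any of them, whereas pairs within replicates 1 and 2 shared up to 85 barcodes (1.31% of the smaller library) and the 2 libraries of replicate 3 shared 10. This division is called the barcode set below. Cells were grouped by clustering without the 71 genes and named from markers as macrophage-like, endothelial-like and so on. The 10 macrophage markers summed to 18,209 to 22,086 CPM (UMIs scaled to a common total of 1e+06 per class and library) in macrophage-like cells and to 54.6 to 337 CPM in endothelial-like cells. The 10 endothelial markers summed to 9915 to 20,314 CPM in endothelial-like cells.

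The respiratory chain genes took up the largest share of RNA in hepatocyte-like cells. In the mean of replicates 1 and 2 the share was smallest in B cell-like cells (1.07%), and in that of replicate 3 it was smallest in plasma cell-like cells (0.820%, beside 0.848% in B cell-like cells). In hepatocyte-like cells they made up 4.52%, 4.84% and 4.19% of UMIs of the vehicle libraries (replicates 1, 2 and 3), and 3.65% and 3.54% of the last 2 ginkgetin libraries. Ginkgetin replicate 1 held no hepatocyte-like cell, and ginkgetin replicate 2 held 12. The 2 ginkgetin libraries lay below the 3 vehicle libraries. Median depth was 3787.5, 3360 and 3174 UMIs per cell in these vehicle libraries and 2655 and 1379.5 in the ginkgetin libraries, and the median mitochondrial percentage was 0.104, 0.0459 and 0.305 against 2.23 and 0.425. Their part in the result was not tested. Cholangiocyte-like cells, of the bile duct epithelium, followed with 2.37%, 2.04% and 1.94% in the vehicle group and 2.59%, 2.47% and 1.62% in the ginkgetin group. B cell-like cells had 1.21%, 0.996% and 0.957%, and 1.004%, 1.07% and 0.740%. Plasma cell-like cells of vehicle replicate 3, at 0.714%, were below every B cell-like library. Apart from hepatocyte-like cells, the libraries of each class overlapped with those of its neighbours in this order. These shares describe classes that were themselves found from expression, so no test is given for them.

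**Figure D1:**
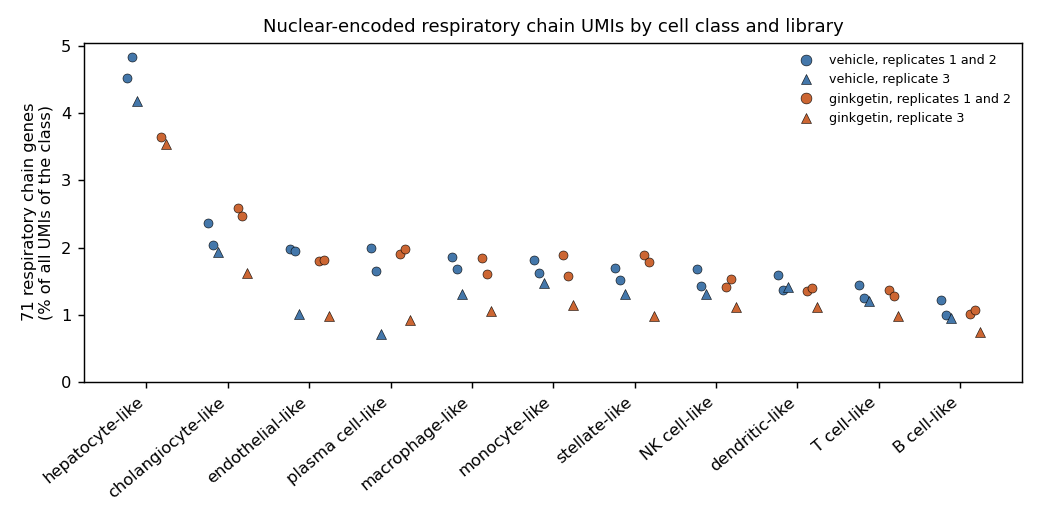
Share of all UMIs of a class that came from the 71 respiratory chain genes (y axis, %), for each marker-named class (x axis) and library, with blue points for vehicle and orange points for ginkgetin. Triangles are replicate 3. Hepatocyte-like cells were the highest, at 3.54% to 4.84%. The triangles lay below the circles of the same group in every class drawn, except in the vehicle group of dendritic-like cells.

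The share also moved with the barcode set. In endothelial-like cells, replicate 3 had 51.2% (vehicle) and 54.0% (ginkgetin) of the mean level of replicates 1 and 2. In plasma cell-like cells the values were 39.2% and 47.7%. In dendritic-like cells they were 95.1% and 81.6%. The ginkgetin and vehicle libraries were therefore also compared with the barcode set, or the replicate number, as a term of the fit, and those values are given beside the others.

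Macrophage-like cells were the class with respiratory chain genes called between the groups. In edgeR's quasi-likelihood test 7 of the 70 respiratory chain genes tested were lower in the ginkgetin group and 0 were higher (adjusted p under 0.05 over all 10,166 genes tested). This was 10.0% of the genes tested, beside 13.2% of all genes called in either direction and 6.41% called lower. All 7 were complex I genes, as are 43 of the 71, and complex I was not tested against the other complexes. Ndufv1, Ndufv2, Ndufs8, Ndufa9, Ndufa12 and Ndufs4 are described here. The median log2 fold change of the respiratory chain genes was -0.60, beside 0.018 over all genes tested, and 65 of the 70 lay below 0. With a term for the barcode set 41 were lower (58.6%, beside 16.8% of all genes called lower), and with the replicate number as a term 39 were lower (beside 15.2%). These 41 and 39 each included the 7. The count rested on single libraries, as 0 were called when vehicle replicate 1, vehicle replicate 2 or replicate 2 of ginkgetin was left out. Leaving out ginkgetin replicate 3 left 1, leaving out ginkgetin replicate 1 left 2, and leaving out vehicle replicate 3 gave 8. The limits of 250 and 5000 on cells were applied here to genes, whereas the study's methods word them as UMIs. Read as UMIs they also gave 0 calls (beside 0.348% of all genes called lower), with 182, 183 and 144 macrophage-like cells left in the vehicle libraries and 88, 223 and 448 in the ginkgetin libraries.

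The core of complex I was represented by 7 genes, of which 6 lay below 0 and 4 were called lower. Ndufv1 encodes the subunit that holds the flavin and takes up NADH. It was at 45.3, 43.9 and 53.6 CPM in the vehicle libraries and at 20.4, 30.5 and 25.6 CPM in the ginkgetin libraries. The lowest vehicle library was above the highest ginkgetin library. Its log2 fold change was -1.37 (SE 0.20, adjusted edgeR p 0.0135).

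Ndufs8, an iron-sulfur subunit, belongs to the part of complex I that hands electrons to ubiquinone. It was at 150, 122 and 116 CPM in the vehicle libraries and at 84.4, 62.6 and 71.4 CPM in the ginkgetin libraries. The groups did not overlap. The log2 fold change was -1.30 (SE 0.25, adjusted edgeR p 0.0217).

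Ndufv2, the iron-sulfur partner of Ndufv1, was at 149, 135 and 116 CPM in the vehicle group and at 87.3, 82.4 and 92.7 CPM in the ginkgetin group (log2 fold change -1.08, SE 0.21, adjusted edgeR p 0.0228). Again the groups did not overlap. The largest core subunit, Ndufs1, was not called and had a value above 0 (log2 fold change 0.17, SE 0.28, adjusted edgeR p 0.740).

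Among the 29 accessory subunits 27 lay below 0 and 3 were called lower. Ndufa12 was at 184, 144 and 122 CPM in the vehicle libraries and at 66.9, 85.5 and 67.6 CPM in the ginkgetin libraries. It had the largest fall of the genes called (log2 fold change -1.50, SE 0.27, adjusted edgeR p 0.0189), with no overlap between the groups. Ndufs4, whose loss in mice is known to cause complex I deficiency, was at 122, 101 and 94.5 CPM and at 81.5, 80.9 and 86.9 CPM (log2 fold change -0.82, SE 0.21, adjusted edgeR p 0.0447). Its groups did not overlap either. Ndufa9 was at 65.7, 58.4 and 51.9 CPM and at 37.8, 45.8 and 56.5 CPM, and here ginkgetin replicate 3 lay above vehicle replicate 3 (log2 fold change -0.80, SE 0.19, adjusted edgeR p 0.0403). The accessory subunits Ndufa3 and Ndufa2 had values above 0, 0.15 (SE 0.30, adjusted edgeR p 0.782) and 0.030 (SE 0.47, adjusted edgeR p 0.982). The 6 called genes described here encode parts of the arm of complex I that reaches into the matrix, an arm to which Ndufs1 and Ndufa2 belong too. This grouping was noticed after the values were seen and was not tested.

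The sequences before the transcription start are shown for the 3 genes that stayed called when counts were scaled by library totals alone. Of the 71 genes, 58 matched the RefSeq promoter table (GRCm38.p6), and 150 bases before the start were searched on both strands. The letters searched were CCGGAA (the core bound by ETS factors), GCATGCGC (bound by NRF1), GGGCGG (GC box), CCAAT and TGACGTCA (CRE), and matches are in capitals. Ndufv1 is shown at chr19:4012756-4012905 (minus strand), Ndufs8 at chr19:3912775-3912924 (minus strand) and Ndufa12 at chr10:94198885-94199034 (plus strand). No 2 matches overlap in these windows.
Ndufv1: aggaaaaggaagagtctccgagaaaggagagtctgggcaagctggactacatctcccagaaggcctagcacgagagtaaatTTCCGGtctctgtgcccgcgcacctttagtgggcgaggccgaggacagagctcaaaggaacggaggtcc
Ndufs8: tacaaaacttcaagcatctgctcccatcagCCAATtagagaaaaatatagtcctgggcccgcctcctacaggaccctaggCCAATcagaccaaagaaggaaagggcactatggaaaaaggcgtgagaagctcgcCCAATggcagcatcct
Ndufa12: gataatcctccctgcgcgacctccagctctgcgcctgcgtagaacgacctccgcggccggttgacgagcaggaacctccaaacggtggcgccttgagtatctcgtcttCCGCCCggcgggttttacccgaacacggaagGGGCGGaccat
Ndufv1 held 1 match, to CCGGAA. Ndufs8 held 3 matches to CCAAT, and Ndufa12 held 2 matches to GGGCGG. Over the 58 genes, CCGGAA was found in 13 (22.4%, beside 10.6% of the 27,025 genes in the table) and GCATGCGC in 5 (8.62%, beside 2.10%). The GC box was in 19 (32.8%, beside 31.3%), CCAAT in 16 (27.6%, beside 27.7%) and TGACGTCA in 3 (5.17%, beside 1.58%). A match of letters describes the window and is not a binding site.

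**Figure D2:**
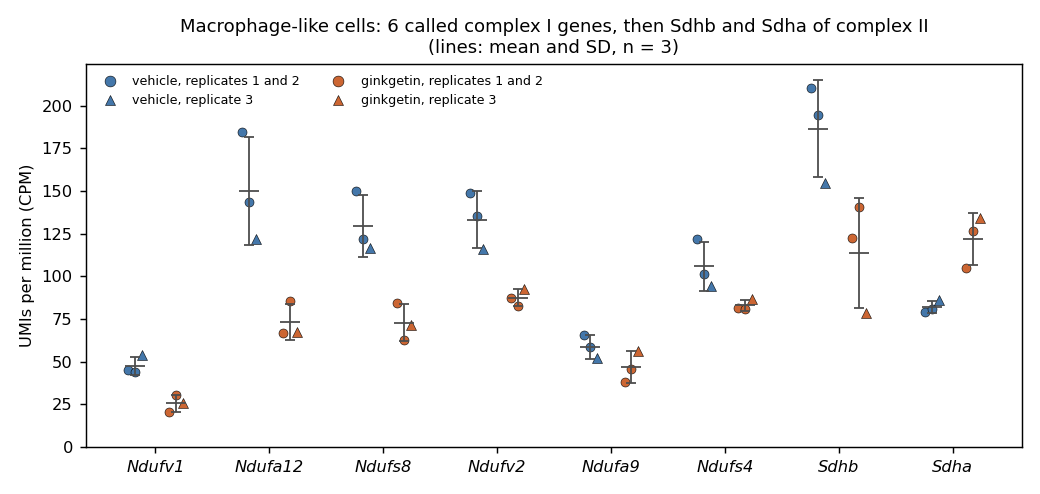
CPM (y axis) in macrophage-like cells of each library for 6 of the 7 complex I genes called lower and for Sdhb and Sdha (x axis), with vehicle in blue and ginkgetin in orange. Lines give the mean and SD of 3 libraries, and in all genes shown except Ndufa9 the groups did not overlap, with Sdha as the only gene that was higher in the ginkgetin libraries.

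None of the 4 genes of complex II was called without a further term. Sdhb, the iron-sulfur subunit, was at 210, 194 and 155 CPM in the vehicle libraries and at 122, 140 and 78.2 CPM in the ginkgetin libraries. The groups did not overlap, but the gene was not called (log2 fold change -1.17, SE 0.33, adjusted edgeR p 0.0621). It was called with a term for the barcode set (adjusted p 0.00140). Sdha, the flavoprotein that oxidises succinate, was at 79.0, 81.0 and 85.8 CPM and at 105, 127 and 134 CPM, higher in all ginkgetin libraries on the CPM scale. After TMM scaling its log2 fold change was 0.11 (SE 0.16, adjusted edgeR p 0.693). The membrane anchors Sdhc and Sdhd had log2 fold changes of -0.078 (SE 0.25, adjusted edgeR p 0.890) and -0.53 (SE 0.21, adjusted edgeR p 0.143).

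Of the 71 genes, no complex III or complex IV gene was called in macrophage-like cells without a further term, although all 8 complex III genes and 10 of the 11 common complex IV genes lay below 0. Uqcrfs1, the Rieske iron-sulfur protein of complex III, had a log2 fold change of -0.81 (SE 0.32, adjusted edgeR p 0.130), and Uqcrc1, a large structural subunit, had -0.87 (SE 0.38, adjusted edgeR p 0.167). Uqcrc1 was at 42.2 CPM in vehicle replicate 1 and at 97.5 and 88.2 CPM in the other vehicle libraries. In complex IV, Cox4i1 had -0.55 (SE 0.36, adjusted edgeR p 0.333), Cox7a2 had -0.60 (SE 0.45, adjusted edgeR p 0.411) and Cox6a1 had 0.079 (SE 0.42, adjusted edgeR p 0.939). Ndufa4, once assigned to complex I and now counted to complex IV, had -0.54 (SE 0.29, adjusted edgeR p 0.259), and Cox7a2l had -0.61 (SE 0.30, adjusted edgeR p 0.221). With a term for the barcode set 19 of the 29 accessory and 6 of the 7 core subunits of complex I were lower. The same fit called 2 of 7 assembly factors, 2 of 4 complex II genes (Sdhb and Sdhd), 4 of 8 complex III genes and 7 of 11 common complex IV genes, all lower, as well as Cox7a2l.

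**Figure D3:**
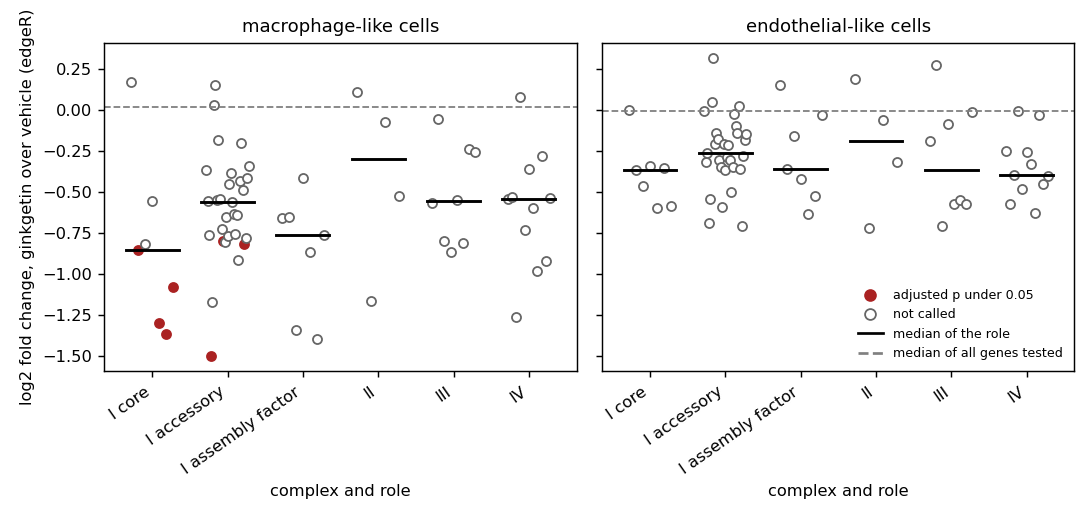
Log2 fold change of each respiratory chain gene in the ginkgetin over the vehicle group by edgeR (y axis), by complex and role (x axis), in macrophage-like and endothelial-like cells. Red points had an adjusted p under 0.05, black bars are medians of a role and the dashed line is the median of all genes tested, and the role medians of macrophage-like cells ran from -0.85 (complex I core) to -0.30 (complex II). Cox7a2l and the tissue-restricted forms are not drawn.

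How libraries were scaled decided how large these differences appeared. With library totals alone the median over all genes was 0.51 and that of the respiratory chain genes was -0.15, so the distance between them was close to that with TMM scaling (0.018 and -0.60). On that scale 3 genes were called lower, Ndufv1, Ndufs8 and Ndufa12 (log2 fold changes -0.87, -0.83 and -1.02, adjusted edgeR p 0.0373, 0.0346 and 0.0260), beside 2.47% of all genes called lower. On the CPM scale 12 of the 70 genes tested were lower in every ginkgetin library than in every vehicle library (17.1%, beside 7.77% of all genes tested), and 2, Sdha and Ndufa3, were higher in every one (2.86%, beside 32.8%). The summed level of the 71 genes overlapped between the groups, at 18,605, 16,781 and 13,045 CPM in the vehicle libraries and 18,380, 16,092 and 10,486 CPM in the ginkgetin libraries.

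**Figure D4:**
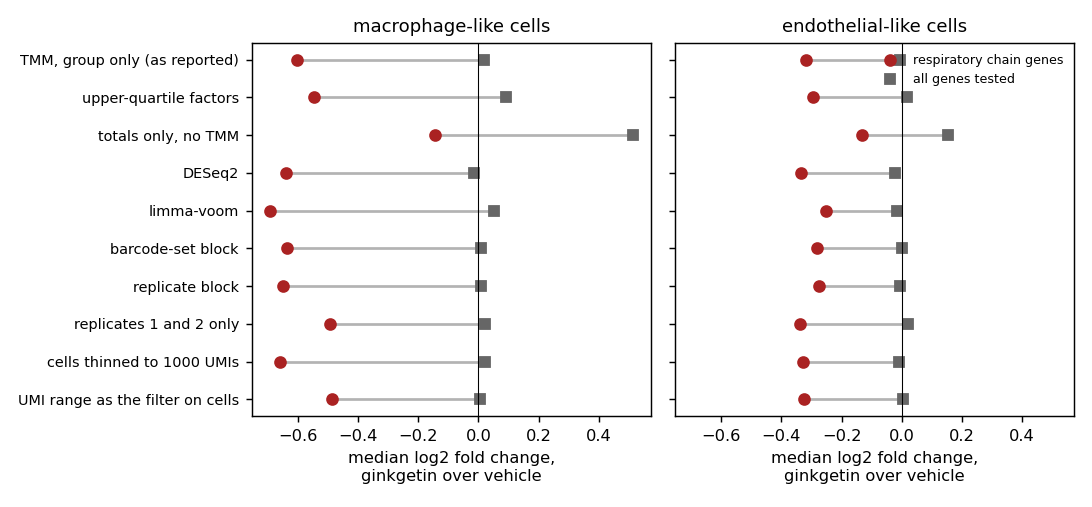
Median log2 fold change in the ginkgetin over the vehicle group (x axis) of the respiratory chain genes (red circles) and of all genes tested (grey squares) under each way of scaling, fitting or filtering (y axis), in macrophage-like and endothelial-like cells. With library totals alone both medians moved to the right in macrophage-like cells, to -0.15 and 0.51, and the respiratory chain genes stayed to the left of all genes in every row drawn.

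Several other measures moved with the groups in macrophage-like cells. The median depth was 9319.5, 7518 and 16,316.5 UMIs per cell in the vehicle libraries and 2372, 2061 and 2346 in the ginkgetin libraries. The median mitochondrial percentage was 2.73, 2.55 and 3.30 in the vehicle libraries and 3.73, 3.68 and 3.61 in the ginkgetin libraries, without overlap. The 10 endothelial markers summed to 200 to 213 CPM in the vehicle libraries and to 940 to 1739 CPM in the ginkgetin libraries. Genes of ribosomal proteins, a list chosen after the values were seen, moved the same way as the respiratory chain, with 71 of 77 below 0, a median log2 fold change of -0.80 and 1 called lower. With a term for the barcode set, 55 of these 77 were called lower, beside 16.8% of all genes. The part of these measures in the result was not tested. After thinning to 1000 UMIs per cell 7 of 63 genes tested were called lower (beside 6.44% of all genes called lower), 4 of them shared with the 7 above (Ndufa12, Ndufs8, Ndufv2 and Ndufs4), while Ndufv1 was not (adjusted edgeR p 0.0574). The clusters also differed, since 2 clusters with Trem2 and Gpnmb among their leading genes, 1 nearly all from replicates 1 and 2 and 1 from replicate 3, made up 31.9% and 22.8% of this class in the vehicle group and 6.06% and 3.93% in the ginkgetin group. Cells led by Marco and Cd163, nearly all from ginkgetin replicate 3, made up 0.293% and 56.0%.

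The macrophage-like cluster led by Fabp7 and Folr2, which also had Clec4f among its leading genes, came nearly all from replicates 1 and 2. It held 628 of 1238 and 372 of 737 macrophage-like cells of vehicle replicates 1 and 2, and a larger part, 89 of 104 and 200 of 238, of those of ginkgetin. In replicates 1 and 2 Ndufv1 was in these cells at 46.9 and 44.3 CPM with vehicle and at 27.4 and 29.7 CPM with ginkgetin. Ndufs8 was at 165 and 133 CPM and at 90.0 and 55.2 CPM. Ndufa12 was at 196 and 161 CPM and at 50.9 and 87.1 CPM. Each of the 7 genes was lower in both ginkgetin libraries than in both vehicle libraries there, as were 27 of the 70 genes tested (38.6%, beside 17.4% of all genes), while 13 were higher in both (18.6%, beside 44.8%). Median depths in this cluster were 10,155 and 6814.5 UMIs in the vehicle libraries and 2201 and 1876 UMIs in the ginkgetin libraries.

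Clec4f encodes a lectin of Kupffer cells, and the comparison was repeated in the macrophage-like cells with a UMI of it. With vehicle 656, 402 and 490 cells had one (53.0%, 54.5% and 44.9% of the class), and with ginkgetin 91, 204 and 503 did (87.5%, 85.7% and 91.6%). The difference in depth remained, with median depths of 9966.5, 6694 and 18,999 UMIs with vehicle and 2211, 1982 and 2314 UMIs with ginkgetin, and whether a cell has a UMI of 1 gene itself depends on depth. In replicate 3 the cells also came from different clusters, as 353 of the 490 vehicle cells were in a cluster led by Mmp12 and Clec4f and 484 of the 503 ginkgetin cells in the one led by Marco. In these cells 6 of 67 genes were lower by edgeR's test and 0 were higher (8.96%, beside 11.1% of all genes called in either direction and 5.50% called lower). After thinning 5 of 60 were lower (beside 4.45% of all genes called lower), and the part of depth and clusters in the result was not tested further. The 6 were Ndufv1, Ndufv2, Ndufs8, Ndufs4, Ndufa12 and Sdhb, so the iron-sulfur subunit of complex II was called here. The median was -0.63, beside 0.034 over all genes. With a term for the barcode set 41 of 67 were lower (beside 16.3% of all genes called lower), and with the replicate number as a term 37 were (beside 14.7%). The count was 0 when replicate 1 or 2 of vehicle or replicate 2 or 3 of ginkgetin was left out. It was 2 when ginkgetin replicate 1 was left out and 9 when vehicle replicate 3 was.

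In endothelial-like cells no respiratory chain gene was called without a further term. In edgeR's test 0 of 67 respiratory chain genes passed, beside 48 of 10,190 genes (0.471%, or 0.314% called lower). DESeq2 and limma-voom also called 0. The median log2 fold change was -0.32, beside -0.0052 over all genes, and 60 of 67 lay below 0. The median mitochondrial percentage was 3.43, 3.35 and 3.53 in the vehicle libraries and 3.84, 3.85 and 4.06 in the ginkgetin libraries, without overlap, and its part in the result was not tested. Depth was alike in the groups, with medians of 2751, 2385.5 and 7614 UMIs per cell in the vehicle libraries and 2246.5, 2495 and 7607 in the ginkgetin libraries. Different clusters held the class in the groups, however, as cells led by Fabp4 and Lyve1 made up 77.2% of vehicle and 1.10% of ginkgetin endothelial-like cells, and cells led by Pde2a made up 1.94% and 57.8%.

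With a term for the barcode set 18 of the 67 genes were lower and 0 were higher (26.9%, beside 9.07% of all genes called lower), and with the replicate number as a term 13 were lower (beside 7.49%). Cox7a2l was at 534, 508 and 375 CPM in the vehicle libraries and at 361, 326 and 273 CPM in the ginkgetin libraries, which did not overlap (log2 fold change -0.74, SE 0.32, adjusted edgeR p 0.381, and 0.00423 with a term for the barcode set). Ndufs4 was at 114, 117 and 78.9 CPM and at 75.2, 69.5 and 72.3 CPM, again without overlap (-0.71, SE 0.28, adjusted edgeR p 0.349, and 0.0229 with that term). Uqcrc2, the partner of Uqcrc1, had the lowest p of the list, with 89.0, 120 and 109 CPM and 69.3, 74.4 and 98.9 CPM (-0.58, SE 0.19, adjusted edgeR p 0.261, and 0.0478 with that term). Here ginkgetin replicate 3 lay above vehicle replicate 1. On the CPM scale 4 of the 67 genes were lower in every ginkgetin library (5.97%, beside 5.82% of all genes tested) and 1, Sdha, was higher (beside 12.5%).

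Ndufv1 had a log2 fold change of -0.36 in endothelial-like cells (SE 0.15, adjusted edgeR p 0.355). Among genes with a mean of 20 CPM or more, the values above 0 with the lowest p were those of Sdha (0.19, SE 0.15, adjusted edgeR p 0.673), Ndufa3, Uqcr11, Ndufa2 and Ndufc1. Sdha was again higher in every ginkgetin library on the CPM scale, at 107, 107 and 118 CPM in the vehicle group and 126, 141 and 158 CPM in the ginkgetin group. Genes of ribosomal proteins had a median log2 fold change of -0.68 in endothelial-like cells, with 72 of 77 below 0 and 0 called, and 60 of them were called lower with a term for the barcode set.

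The difference between macrophage-like and endothelial-like cells was itself tested, in a fit with the library as a term. The change in the ginkgetin group was more negative in macrophage-like cells for 8 of 68 genes and less negative for 0 (11.8%, beside 12.1% of all genes called in either direction and 5.89% called in the negative direction). The median difference was -0.50, beside -0.041 over all genes. Its size depended on the scaling, as Ndufa9 and Cox7c, both at -0.50, were at -0.079 and -0.095 with library totals alone. The ribosomal protein genes moved likewise, from a median of -0.34 to 0.069. Ndufv1 had the lowest p (difference -1.12 on the log2 scale, SE 0.23, adjusted edgeR p 0.00710), and in endothelial-like cells it was at 43.4, 40.4 and 56.5 CPM in the vehicle group and 35.7, 43.1 and 42.7 CPM in the ginkgetin group. Ndufaf3, an assembly factor of complex I, was at 28.04, 25.6 and 22.7 CPM against 11.6, 21.4 and 10.1 CPM in macrophage-like cells, and at 28.4, 29.0 and 19.7 CPM against 25.9, 28.7 and 23.3 CPM in endothelial-like cells (difference -1.36, SE 0.30, adjusted edgeR p 0.00991). The Ndufaf3 difference was -0.48 after thinning (adjusted edgeR p 0.691) and -0.82 in replicates 1 and 2 only (adjusted edgeR p 0.228), so it was called in neither. Ndufv1 was called in neither as well (difference -0.81, adjusted edgeR p 0.265 after thinning, and -0.95, adjusted edgeR p 0.0782 in replicates 1 and 2 only). Nor was Uqcrc1, a core protein of complex III (differences -1.12 and -0.73, adjusted edgeR p 0.0562 and 0.0986). After thinning 7 of 63 genes were called (beside 3.17% of all genes called in the negative direction), and in replicates 1 and 2 only 3 were (beside 2.77%).

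Uqcrc1 also differed (difference -0.97, SE 0.22, adjusted edgeR p 0.0110). In endothelial-like cells it was at 25.6 CPM in vehicle replicate 1, below 76.3 and 67.8 CPM in the other vehicle libraries, as it was in macrophage-like cells. Without vehicle replicate 1 the difference was -0.88 (adjusted edgeR p 0.0409). Leaving out vehicle replicate 3 brought the count to 2, ginkgetin replicate 2 to 3 and ginkgetin replicate 3 to 5. The others called were Ndufb8 and Ndufa13 (accessory subunits), Cox5b (complex IV), Ndufa12 and Ndufs8. With a term for the barcode set in each class 23 genes had a more negative change in macrophage-like cells (33.8%, beside 10.3% of all genes in that direction), and with library totals alone 1, Ndufaf3, did (1.47%, beside 1.84%). No gene of the list was called with UMIs as the limits on cells.

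In the other 9 classes no respiratory chain gene was called by edgeR, DESeq2 or limma-voom, and 0 to 14 of the 60 to 69 genes tested per class had an unadjusted p under 0.05 (0 to 20.3%, beside 5.53% to 16.1% of all genes). The 14 were in dendritic-like cells, where 16.1% of all genes did. The share of all genes called was 0.176% in cholangiocyte-like cells and 0 in the other 8 classes. The medians of the list were below 0 in hepatocyte-like (-0.48), B cell-like (-0.29), dendritic-like (-0.27), NK cell-like (-0.24), monocyte-like (-0.19), plasma cell-like (-0.18) and T cell-like cells (-0.16), and near 0 in stellate-like (-0.0049) and cholangiocyte-like cells (0.014). With a term for the barcode set 5 pairs of a gene and a class were called, which were Ndufa9, Ndufaf3 and Ndufaf5 lower in dendritic-like cells, Ndufaf4 lower in monocyte-like cells and Cox7a1 higher in cholangiocyte-like cells. Of all genes, 2.96% (dendritic-like) and 1.39% (monocyte-like) were called lower in this fit and 1.99% (cholangiocyte-like) higher. With the replicate number as a term 4 were called, and these were Ndufa9, Ndufaf4 and Cox7a1 in the same classes and Ndufaf2, lower in hepatocyte-like cells. The Ndufaf2 call rested on 1 UMI in 12 cells of ginkgetin replicate 2 and 2 UMIs in 174 cells of ginkgetin replicate 3, beside 8, 15 and 79 UMIs in the vehicle libraries, with no cell from ginkgetin replicate 1, and it was not called with a term for the barcode set (adjusted edgeR p 0.0563). Of all genes, 1.80% (dendritic-like), 0.985% (monocyte-like) and 1.07% (hepatocyte-like) were then called lower and 1.79% (cholangiocyte-like) higher. The NK cell-like class rested on 16 cells in vehicle replicate 3.

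Some subunits have forms that are restricted to certain tissues, and these marked out particular cells in the liver. Cox6a2 is the striated muscle form of the complex IV subunit whose common form is Cox6a1. Among the classes drawn, which leave out hepatocyte-like cells, it was highest in the dendritic-like clusters led by Siglech, a gene of plasmacytoid dendritic cells. These 347 cells made up 21.9% of dendritic-like cells and held 2973 Cox6a2 UMIs, 99.3% of those in the class. Cox6a2 was there at 1416, 1243 and 1052 CPM in the vehicle libraries and at 868, 1313 and 1308 CPM in the ginkgetin libraries, and the groups overlapped. A UMI was found in 83.3% to 97.7% of these cells, at median depths of 5321 to 10,466 UMIs, but in 0% to 0.824% of T cell-like cells, at median depths of 2627 to 6338 UMIs. The share reached 4.95% in macrophage-like cells (median depths of 2061 to 16,316.5 UMIs) and 6.06% in plasma cell-like cells (5747 to 25,808 UMIs), where 132 and 50 UMIs were found. Cox6a2 was also among the leading genes of those clusters, so its level there is a description. Over all dendritic-like cells its log2 fold change was 0.42 (SE 0.53, adjusted edgeR p 0.753). The common form was present too, at 210 to 541 CPM.

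Cox7a1 is the form of heart, muscle and brown fat. Among the classes drawn it had its highest level per UMI of a class in cholangiocyte-like cells, beside 1.45 to 5.82 CPM in macrophage-like cells. In cholangiocyte-like cells it was at 31.5, 37.0 and 33.6 CPM in the vehicle libraries and at 80.1, 136 and 48.5 CPM in the ginkgetin libraries. All ginkgetin libraries lay above all vehicle libraries, by a log2 ratio of 1.66 in replicates 1 and 2 and of 0.53 in replicate 3. It was not called (log2 fold change 1.43, SE 0.39, adjusted edgeR p 0.213), but it was called with the barcode set (adjusted p 0.0121) or the replicate number (adjusted p 0.00600) as a term. A UMI of Cox7a1 was found in 22.4%, 26.2% and 29.3% of the vehicle cells and in 40.8%, 45.6% and 37.5% of the ginkgetin cells, at lower median depths in ginkgetin replicates 1 and 2 (5520 and 5872 UMIs) than in vehicle replicates 1 and 2 (8699 and 6715 UMIs). In T cell-like cells that share was 0.0883% to 0.644%.

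Ndufa4l2, a paralog of Ndufa4 known to respond to low oxygen, was seen in the class named stellate-like. This class joined 2 clusters, of which 1 (181 of 286 cells) was led by genes that include the stellate markers Lrat, Reln and Rgs5. The other (105 cells) was led by Gsn, Dpt and Clec3b and had none of the 8 stellate markers among its 10 leading genes, so the class is a mixture. Ndufa4l2 was at 13.2, 61.8 and 94.3 CPM in the vehicle libraries and at 27.99, 153 and 85.4 CPM in the ginkgetin libraries, so the spread within a group was wider than the difference between groups (log2 fold change 0.63, SE 0.65, adjusted edgeR p 0.952). In vehicle replicate 3, 30 of the 56 UMIs came from 1 cell. In every other class drawn it was at 3.50 CPM or less. Cox6b2, the testis form, was at 181 and 61.8 CPM in this class in vehicle replicates 1 and 2, where 20 of 26 and 17 of 41 cells were of the cluster led by Gsn, Dpt and Clec3b. These levels came from 41 UMIs in 7 cells and 18 UMIs in 5 cells. In the other 4 libraries it was at 5.05 to 11.8 CPM. In 1 cell of vehicle replicate 1 there were 16 of those UMIs. It was also found in every library of monocyte-like cells (8.74 to 21.7 CPM), cholangiocyte-like cells (7.63 to 26.7 CPM) and dendritic-like clusters not led by Siglech (7.93 to 26.9 CPM).

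**Figure D5:**
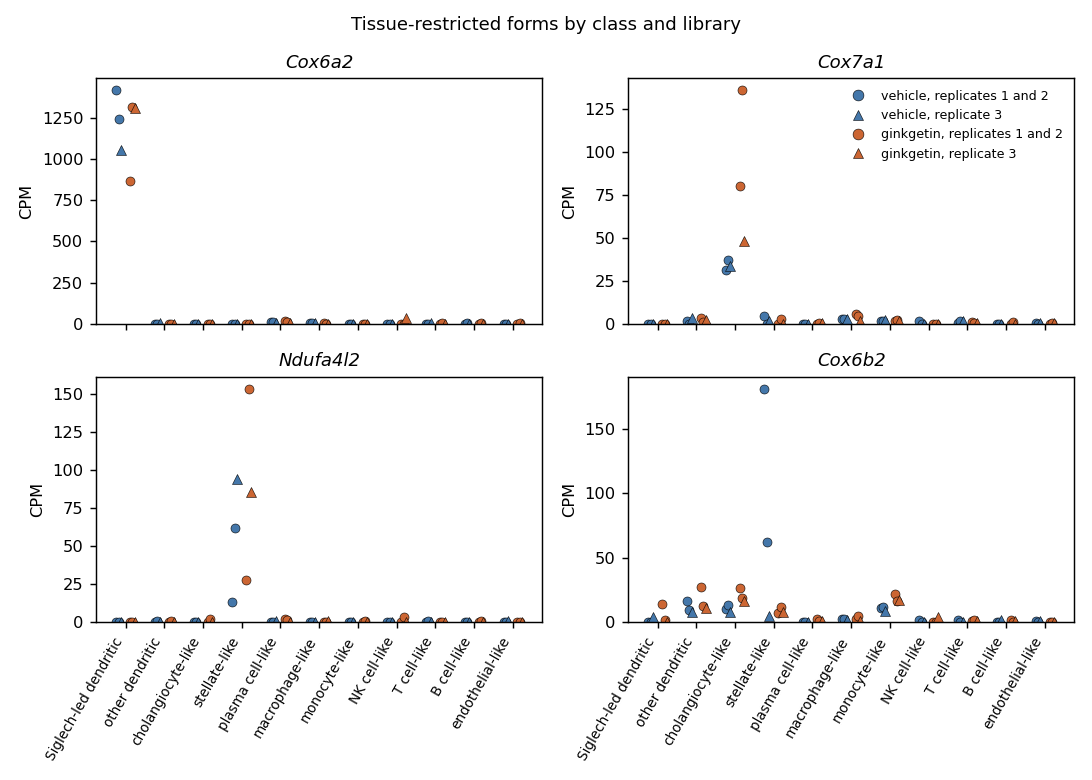
CPM (y axes, a separate linear scale for each gene) of 4 tissue-restricted forms by class (x axis) and library, with vehicle in blue, ginkgetin in orange and replicate 3 as triangles. Cox6a2 stood at 868 to 1416 CPM in Siglech-led dendritic clusters, Cox7a1 was highest in cholangiocyte-like cells, Ndufa4l2 in stellate-like cells, and Cox6b2 in stellate-like cells of vehicle replicate 1. Hepatocyte-like cells are not drawn.

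Neighbouring lists of genes were examined in macrophage-like cells, using genes with a UMI in every library. The shares over all genes were 6.41% called lower in this fit, 16.8% with a term for the barcode set and 2.47% with library totals alone. Of 15 ATP synthase genes 2, Atp5b and Atp5c1, were lower by edgeR's test (median of the list -0.66), and 9 were lower with a term for the barcode set. With library totals alone 0 were called and the median was -0.24. Of 43 genes for cytochrome c, ubiquinone synthesis and complex assembly 5 were lower and 0 higher (median -0.60). There were 15 lower with a term for the barcode set, and with library totals alone 1 was lower and 2 were higher (the 3 were Coa5, Cox16 and Tmem126a, and the median was -0.097). With TMM scaling and no further term the 5 lower genes included Cyc1 (cytochrome c1 of complex III, -1.10, SE 0.21, adjusted edgeR p 0.0216). The complex I assembly genes Tmem126a (-1.58, SE 0.32, adjusted edgeR p 0.0240) and Tmem126b (-1.15, SE 0.23, adjusted edgeR p 0.0240) were also among the 5. So were the complex IV assembly gene Coa3 (-1.11) and Ttc19 (-1.34), which acts on complex III. Of 16 citric acid cycle genes 4 were lower (Idh3b, Idh3g, Mdh2 and Suclg1, from -1.25 to -0.80), and the median was -0.10. With library totals alone 2 were lower and 2 higher (median 0.38), and with a term for the barcode set 5 were lower and 2 higher.

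Of the 13 protein-coding genes of the mitochondrial genome 0 were called in macrophage-like cells without a further term, and mt-Nd3 was higher with a term for the barcode set (1.38, SE 0.23, adjusted edgeR p 0.00274). Their median was -0.13, and 0.33 with library totals alone. Their sum was 26,657, 25,214 and 33,139 CPM in the vehicle libraries and 34,836, 33,026 and 36,381 CPM in the ginkgetin libraries, where vehicle replicate 3 lay above ginkgetin replicate 2. Cells with 5% or more mitochondrial UMIs had been left out, which bounds this sum. Of 13 regulators of mitochondrial biogenesis tested 0 were called with TMM scaling and no further term (median 0.27). Nrf1 (0.27, SE 0.28, adjusted edgeR p 0.556) and Tfam (-0.057, SE 0.22, adjusted edgeR p 0.911) were among these regulators. With library totals alone Esrra was called higher and the median was 0.78. In endothelial-like cells no gene of these 5 lists was called by edgeR without a further term, and the medians were -0.35 for ATP synthase, -0.23 for cytochrome c, ubiquinone and assembly, -0.20 for the citric acid cycle, 0.18 for the mitochondrial genome and -0.020 for the regulators. The fit with a term for the barcode set called 6 ATP synthase genes, 5 genes of cytochrome c, ubiquinone and assembly and 2 of the citric acid cycle lower there, and 2 mitochondrial genes (mt-Nd1 and mt-Nd3) and 2 genes of cytochrome c, ubiquinone and assembly higher.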

How the data were processed

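Single-cell RNA of liver non-parenchymal cells was measured in 6 libraries. The authors deposited UMI count tables per gene and cell, and the labels name GRCm38 and mm10 as builds. The aligner is not given in the sources used here. The labels name a 10x assay beside a protocol for another RNA kit, and the study's methods describe 10x Chromium. The 71 genes and the lists were chosen with earlier results of these data known.

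Cells with 250 to 5000 genes and under 5% mitochondrial UMIs were kept. The study's methods word the first limits as UMIs, which would keep 16,821 of 33,168 barcodes in place of 27,544 and was an alternative. They were clustered with scanpy 1.11.5 (2000 variable genes without the 71, 30 components, 15 neighbours, Leiden resolution 1) and clusters were named from markers. Of 39 clusters 7 stayed unnamed. Scrublet called 0.0286% to 0.192% of cells, too few to have worked, so leaving out the 5% with the highest doublet scores was an alternative. UMIs were summed per library and class, with at least 10 cells, and tested with edgeR 4.0.16 (quasi-likelihood, TMM, R 4.3.3), with Benjamini-Hochberg adjustment over all genes tested. DESeq2 1.42.0 and limma 3.58.1 were alternatives. Genes named were the called genes, a fixed set of subunits and those with the lowest p at 20 CPM or more.

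The study states no pairing of the libraries, so the replicate number was a term only in an alternative fit. Deviations from the group means of same-numbered libraries correlated at 0.41, 0.45 and 0.79 in macrophage-like and at 0.67, 0.62 and 0.91 in endothelial-like cells. Replicates 1 and 2 correlated about as highly with each other's number (0.37 and 0.45 in macrophage-like cells and 0.60 and 0.66 in endothelial-like cells). These values set replicate 3 apart and do not show that replicates 1 and 2 are paired by number. On simulated counts for 10,166 genes in macrophage-like cells, 38% of genes changed by 1 on the log2 scale and 88% changed by 2 were recovered, and 10% of calls were false. Of the called genes 1 is not reported here by name.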

Additional observations from a re-analysis of the deposited data

Results flagged for a closer look

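For 8 genes the difference between the ginkgetin and vehicle groups itself differed between macrophage-like and endothelial-like cells by edgeR's test of the difference, and all 8 were more negative in macrophage-like cells. This was 11.8% of the genes tested, beside 12.1% of all genes called in either direction and 5.89% in the negative direction. On the log2 scale the differences were -1.12 for Ndufv1, -1.36 for Ndufaf3, -0.97 for Uqcrc1, -1.005 for Ndufb8, -1.11 for Cox5b, -0.88 for Ndufa12, -0.87 for Ndufs8 and -0.88 for Ndufa13. Median depth fell from vehicle to ginkgetin libraries in macrophage-like cells and not in endothelial-like cells, and its part in these differences was not tested beyond thinning. After thinning 7 of 63 genes were called (beside 3.17% of all genes called in the negative direction), 5 of them among these 8. Ndufv1, Ndufaf3 and Uqcrc1, which had the lowest p before, were not called. Their differences after thinning were -0.81 (adjusted edgeR p 0.265), -0.48 (0.691) and -1.12 (0.0562), so that of Uqcrc1 did not shrink. With library totals alone only Ndufaf3 of the 8 stayed called, and with UMIs as the limits on cells none did.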

How the results depend on the processing

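In macrophage-like cells the count of genes called was 3 with library totals alone, 15 with DESeq2 (beside 10.4% of all genes called lower), 4 with no filter on genes (2.42%), 39 with a replicate block, 41 with a barcode-set block, 18 in replicates 1 and 2 only (9.89%), 0 with UMIs as the limits on cells and 4 where a fold over 2 was also required. It ran from 0 to 8 when 1 library was left out. In endothelial-like cells it was 13 with the replicate block, 18 with the barcode-set block and 10 in replicates 1 and 2 only (4.93%), and 0 whichever library was left out. In Clec4f-positive cells it was 3 with totals alone, 12 with DESeq2 (8.94%), 37 with the replicate block, 41 with the barcode-set block, 18 in replicates 1 and 2 only (9.06%) and 1 with UMIs as the limits, and 0 to 9 with 1 library left out. For the difference between both classes it was 1 with totals alone, 5 with upper-quartile factors (3.45%), 4 with DESeq2 (2.29%), 14 with limma-voom (6.44%), 23 with no filter on genes (6.82%), 23 with the barcode-set term, 3 in replicates 1 and 2 only (2.77%), 0 with UMIs as the limits, 5 with the 71 genes kept in clustering (3.58%) and 4 with a fold over 2, and 2 to 8 with 1 library left out. That fit already holds the library as a term, so no separate replicate block was run for it. In the other classes it was 4 with the replicate block, 5 with the barcode-set block and 3 in replicates 1 and 2 only. Joining the unnamed clusters to their nearest class was chosen after seeing the data and left 7 genes in macrophage-like cells. The cause of these changes was not tested.

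Some values near 0 changed sign. In macrophage-like cells Sdhc was 0.40 with totals alone and 0.25 with UMIs as the limits (-0.26 to 0.11 with 1 library left out), Ndufs1 was -0.24 after thinning (-0.10 to 0.41), Cox6a1 was -0.044 in replicates 1 and 2 only (-0.26 to 0.33), and Ndufa3 ran from -0.10 to 0.33. Ndufa2 was -0.00257 with DESeq2, -0.00864 with limma-voom, -0.022 with no filter on genes, -0.057 with the replicate block, -0.054 with the barcode-set block and -0.18 with UMIs as the limits (-0.34 to 0.35). In endothelial-like cells, with 1 library left out, Ndufa3 ran from -0.023 to 0.69, Uqcr11 from -0.030 to 0.61 and Ndufa2 from -0.34 to 0.46. Ndufc1 was -0.010 in replicates 1 and 2 only, -0.085 with UMIs as the limits and -0.069 after thinning (-0.32 to 0.35). Ndufa4l2 in stellate-like cells was -0.067 with no filter on cells, and Cox6a2 in dendritic-like cells ran from -0.090 to 0.70.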

Other observations

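Among 13 regulators of mitochondrial biogenesis, Esrra, a nuclear receptor that acts on respiratory chain genes, had a log2 fold change of 0.63 in macrophage-like cells (adjusted edgeR p 0.0888, and 0.0281 with a term for the barcode set). With library totals alone Esrra was called higher there as well. Of 13 cell cycle genes tested there 1, Stmn1, was called lower by edgeR, and the median was -0.44.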
